A study of Mus musculus with 12 samples.

Results

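Liver of unoperated adult Socs2-null mice was compared with liver of unoperated, age-matched wildtype mice over all genes. The arrays were chosen by their titles: 2 of Socs2-null and 2 of wildtype liver at time 0, which makes 4 of the 12 arrays of the series. Both genotypes were C57BL/6, the null allele being kept on that background, and the animals at 0 h had no treatment. The other 8 arrays hold liver of the same genotypes 24 h and 36 h after removal of 2/3 of the liver. Each array carried RNA pooled from 3 animals, so an n of 2 counts pools, and the sex of the mice, the hour of harvest and the deleted stretch of the gene are not stated in the labels.

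Growth hormone from the pituitary binds its receptor on hepatocytes, the receptor activates the kinase JAK2, and JAK2 activates the transcription factor STAT5. STAT5 switches on Igf1, the circulating growth factor gene, together with genes of feedback inhibitors of the SOCS family, which bind the activated receptor and end the signal. Socs2 is one of these inhibitors, and mice that lack it are known to grow larger than normal. In rodents the liver also reads the sex-specific rhythm of growth hormone release, which sets many sex-biased liver genes.

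The values were the authors' array intensities on a linear scale, and all changes below are Socs2-null minus wildtype on log2(intensity + 16), ± standard error. At 0 h the median intensity was 49.9 and 47.5 on the Socs2-null arrays and 51.7 and 52.3 on the wildtype arrays. A reading was taken as under background when it fell short of the brightest among the array's 17 tag controls, which read 45.0 and 35.3 in Socs2-null liver and 41.7 and 42.8 in wildtype liver. Pearson's r over all probe sets was 0.991 between the Socs2-null pools and 0.995 between the wildtype pools. Socs2-null pool 2 correlated with the wildtype pools at 0.991 and 0.990, and Socs2-null pool 1 at 0.995 and 0.994, so pool 2 stood apart from the other 3 arrays. For some genes below, the change without pool 2 is given as well, but not for every gene whose change depends on that pool. The hepatocyte genes Alb and Ttr, for albumin and transthyretin, read between 14274 and 18704 on all 4 arrays.

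No gene of the 17097 measured passed an adjusted p of 0.05 in limma at 0 h (0.0%), where the smallest adjusted p was 0.213. The largest differences that both pools of each genotype shared were in Socs2 itself, Moxd1 and Zbtb16, all lower in Socs2-null liver. By their means alone 37.9% of genes were higher in Socs2-null liver, and 3747 genes (21.9%) were under background in both groups. Among genes changed over 2-fold whose arrays did not overlap, 5 were lower in Socs2-null liver (0.0292% of genes), namely Socs2, Moxd1, Zbtb16, Cyp7a1 and Xlr4b. The 2 higher ones (0.0117%), Ccdc116 and Pik3r3, were high on Socs2-null pool 2 alone, and Xlr4b was high on wildtype pool 2 alone. At 1.5-fold the counts were 43 lower (0.252%) and 8 higher (0.0468%). The text therefore gives levels and differences with their errors, and calls no gene changed.

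Socs2 read 26.4 and 27.6 in Socs2-null liver, against 546 and 261 in wildtype liver. Both Socs2-null readings were under background, both wildtype readings were far above it, and the groups did not overlap. The difference was at least 9.47-fold, with a fitted log2 change of -3.20 ± 0.42 (limma, adjusted p = 0.213). Wildtype pool 1 read above wildtype pool 2. A second probe set of Socs2 showed the same order with 20.8 and 22.1 in Socs2-null liver against 223 and 108 in wildtype liver. Another, with 96.4 and 95.1 in Socs2-null liver against 97.4 and 90.4 in wildtype liver, and the last of the 4, under background on all arrays, did not part the genotypes. Whether these 2 probe sets lie in the deleted stretch cannot be read from the files, so they check nothing.

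Moxd1 encodes a copper-dependent monooxygenase-like protein and is known as a male-biased gene of mouse liver. It read 27.8 and 20.3 in Socs2-null liver, against 348 and 156 in wildtype liver. As with Socs2, both Socs2-null readings were under background, the groups did not overlap, and wildtype pool 1 read above wildtype pool 2. The difference was at least 5.85-fold (log2 change -2.65 ± 0.38, limma adjusted p = 0.213). Moxd1 and Socs2 both lie on chromosome 10, with 496 measured genes between them in RefSeq order. Of the 12 genes with the largest negative differences 3 lie on that chromosome, Socs2, Moxd1 and 9030612E09Rik. It holds 4.77% of the measured genes. The chromosome was read because Socs2 and Moxd1 lie on it, so the count of 3 cannot show an excess there.

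The genes next to Socs2 on its chromosome were read as well. Of the 15 measured genes on either side, 20 were lower and 10 higher by their means, with 11 lower and 3 higher without overlap of the arrays, and a median of -0.05 (0.02 with arrays centred on their medians) against -0.04 over all genes. Over all genes, arrays did not overlap for 27.9% in the lower direction and for 13.9% in the higher. The smallest p-values among the neighbours belonged to Ntn4, which encodes the laminin-related protein netrin 4, and to Kera, which encodes the matrix protein keratocan. Ntn4 read 36.1 and 36.7 in Socs2-null liver against 50.8 and 46.5 in wildtype liver (-0.30 ± 0.10). Kera was under background in both groups. The immediate neighbour Cradd, an adaptor gene of cell death signalling, stood at -0.05 ± 0.12.

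STAT5 binds the palindrome TTCNNNGAA, and a form with a spacer longer by 1 base is best known for STAT6. Both were looked up in promoter windows of RefSeq (GRCm38.p6), from 250 bases before a gene's start to 50 bases after it. Since each motif reads the same on both strands, 1 scan covers both, and the 2 motifs were counted apart. The windows of Moxd1 and Cish are printed because Moxd1 had the largest difference after Socs2 and Cish is a classical STAT5 target of the same family as Socs2. Capitals mark TTCNNNGAA. The Moxd1 window is chr10:24223267-24223566 and the Cish window chr9:107296409-107296708, both on the plus strand.
Moxd1: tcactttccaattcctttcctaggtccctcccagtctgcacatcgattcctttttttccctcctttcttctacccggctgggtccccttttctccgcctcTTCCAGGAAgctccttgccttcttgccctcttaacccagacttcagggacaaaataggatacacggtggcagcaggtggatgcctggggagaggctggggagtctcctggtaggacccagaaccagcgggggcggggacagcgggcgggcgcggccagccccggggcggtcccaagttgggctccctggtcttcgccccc
Cish: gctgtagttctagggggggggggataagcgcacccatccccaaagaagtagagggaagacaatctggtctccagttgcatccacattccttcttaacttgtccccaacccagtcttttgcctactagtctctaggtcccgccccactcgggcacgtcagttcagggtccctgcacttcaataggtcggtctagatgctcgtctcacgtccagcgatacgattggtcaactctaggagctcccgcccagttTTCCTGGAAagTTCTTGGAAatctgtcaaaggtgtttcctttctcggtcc

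The Moxd1 window holds 1 match before the gene's start, and the Cish window holds 2 matches from its start on. Of all 32851 windows, 8.30% held TTCNNNGAA at least once, 6.95% held the longer form and 0.457% held TTCNNNGAA 2 or more times. Counted by gene, where any window of a gene suffices, 9.55% of 27025 genes held TTCNNNGAA. The sets below are counted by gene. Of the 11 measured growth hormone and STAT5 targets, 10 have a window, and 4 of these held TTCNNNGAA: Bcl6 with 3 matches, Cish with 2, and Igfals and Socs3 with 1 each. The longer form was found in 1 of the 10, Cd36. Among the 12 largest negative differences 8 genes have a window and 1 of them held TTCNNNGAA, Moxd1. Among the 10 largest positive ones 7 have a window and 1 held it, Steap2. A match describes the letters of a window and shows no binding.

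**Figure D1:**
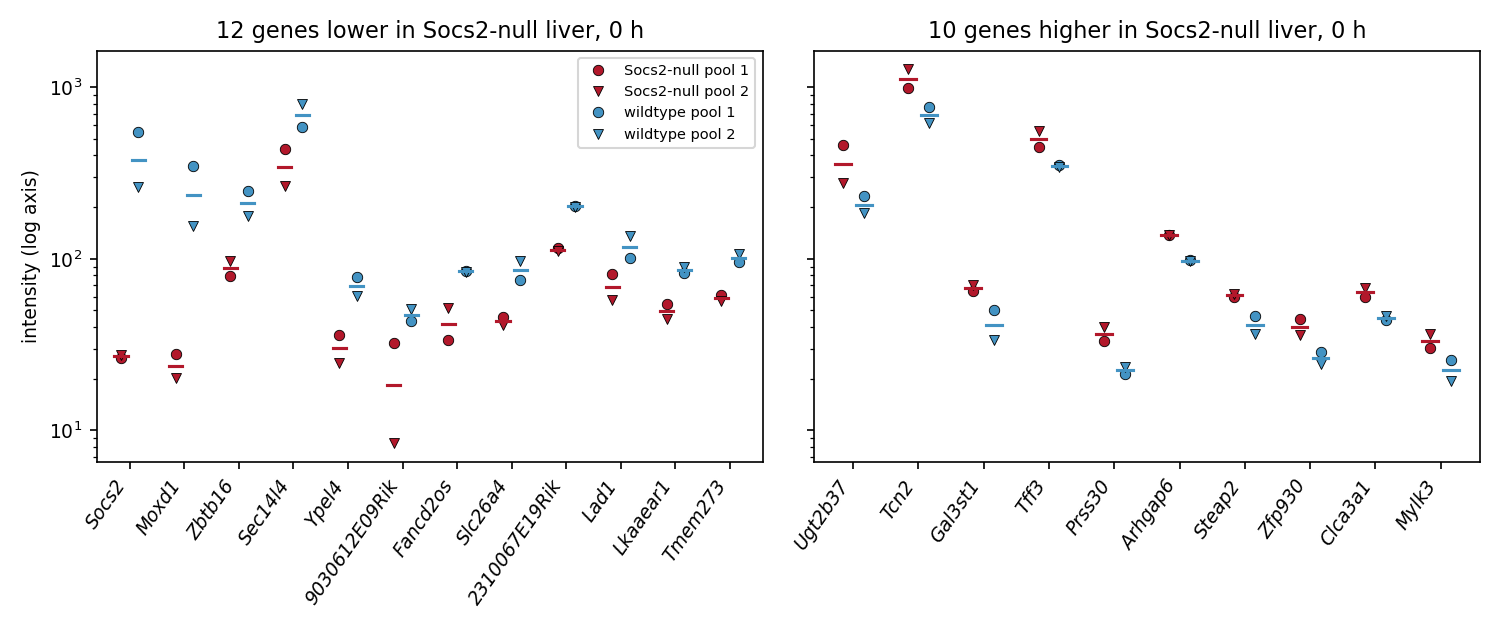
Intensity on a log axis of the 12 genes with the largest negative (left) and the 10 with the largest positive (right) differences at 0 h. Each gene has its 2 Socs2-null pools to the left (red) and its 2 wildtype pools to the right (blue), circles for pool 1 and triangles for pool 2, with a bar at the mean of log2(intensity + 16), and only Socs2 and Moxd1 part by more than 5-fold.

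The genes in the plot of the largest differences met 3 conditions: an unadjusted p under 0.01, arrays that did not overlap, and a level not under background in both groups. Of 137 such genes (0.801%) 127 were lower (0.743%) and 10 higher (0.0585%). The condition fixed that their arrays did not overlap, so that is no finding about them. At the edge of the lower 12, Tmem273 was the last inside with -0.6422 and Oas1f the first outside with -0.6420.

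Zbtb16 encodes a zinc finger transcription factor that glucocorticoids are known to induce. It read 79.8 and 96.6 in Socs2-null liver, against 249 and 178 in wildtype liver. Both Socs2-null pools were low (-1.13 ± 0.18, limma adjusted p = 0.213). Its second probe set kept the order, with 56.1 and 58.8 against 110.01 and 73.0. After hepatectomy its readings were above those of unoperated liver in both genotypes. At 24 h the genotypes overlapped, with 362 and 373 in Socs2-null liver against 429 and 318 in wildtype liver. At 36 h both Socs2-null pools were the higher ones, with 410.2 and 396 in Socs2-null liver against 337 and 364 in wildtype liver. The changes at 24 h and 36 h were -0.01 and 0.19. Of 18 measured glucocorticoid-induced genes, Zbtb16 among them, 9 were higher and 9 lower at 0 h, with a median of 0.01.

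Sec14l4, of the SEC14 family of lipid-binding proteins, read 435 and 266 in Socs2-null liver against 589 and 799.8 in wildtype liver (-0.98 ± 0.30, limma adjusted p = 0.897). It was lower in Socs2-null liver at the other times as well, by -0.96 at 24 h and -0.71 at 36 h. Ypel4, of the yippee-like family, read 36.0 and 24.8 in Socs2-null liver against 78.6 and 60.9 in wildtype liver. Both Socs2-null readings were under background, which makes the difference at least 1.74-fold (-0.89 ± 0.14, limma adjusted p = 0.213). The anion exchanger gene Slc26a4 read 45.6 and 41.0 in Socs2-null liver against 75.7 and 96.5 in wildtype liver (-0.78 ± 0.19). Without Socs2-null pool 2 the change of Sec14l4 was -0.64. 9030612E09Rik, with 32.4 and 8.41 in Socs2-null liver against 43.5 and 51.2 in wildtype liver, was under background on both Socs2-null arrays and so has only a bound of at least 1.18-fold. Its fitted change was -0.88, or -0.39 without Socs2-null pool 2. The remaining genes of the lower group, Fancd2os, 2310067E19Rik, Lad1, Lkaaear1 and Tmem273, had changes between -0.80 and -0.64 and no wildtype reading above 203. A second probe set of 2310067E19Rik did not part the genotypes, with 56.0 and 59.8 in Socs2-null liver against 59.9 and 47.7 in wildtype liver.

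On the higher side, Ugt2b37 encodes a UDP-glucuronosyltransferase, an enzyme that conjugates steroids and drugs, and its family members are close enough in sequence that a probe set may read several. It read 459 and 277 in Socs2-null liver against 231 and 185 in wildtype liver (0.74 ± 0.21, limma adjusted p = 0.862). Without Socs2-null pool 2 the change of Ugt2b37 was 1.09. Tcn2, for the vitamin B12 carrier transcobalamin, read 986 and 1268 in Socs2-null liver against 769 and 614 in wildtype liver (0.69 ± 0.18, limma adjusted p = 0.862). All 3 probe sets of Tcn2 had both Socs2-null pools above both wildtype pools, with log2 differences of 0.69, 0.50 and 0.51. The trefoil peptide gene Tff3 read 446 and 559 in Socs2-null liver against 353 and 342 in wildtype liver (0.50 ± 0.13). The other 7, Gal3st1, Prss30, Arhgap6, Steap2, Zfp930, Clca3a1 and Mylk3, had changes between 0.36 and 0.55. Of these Prss30, Zfp930 and Mylk3 were under background on both wildtype arrays and on 1 Socs2-null array, so they passed the condition on level through 1 reading and their wildtype levels are not measured. The other 3 probe sets of Steap2 were under background on at least 1 array of each genotype.

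**Figure D2:**
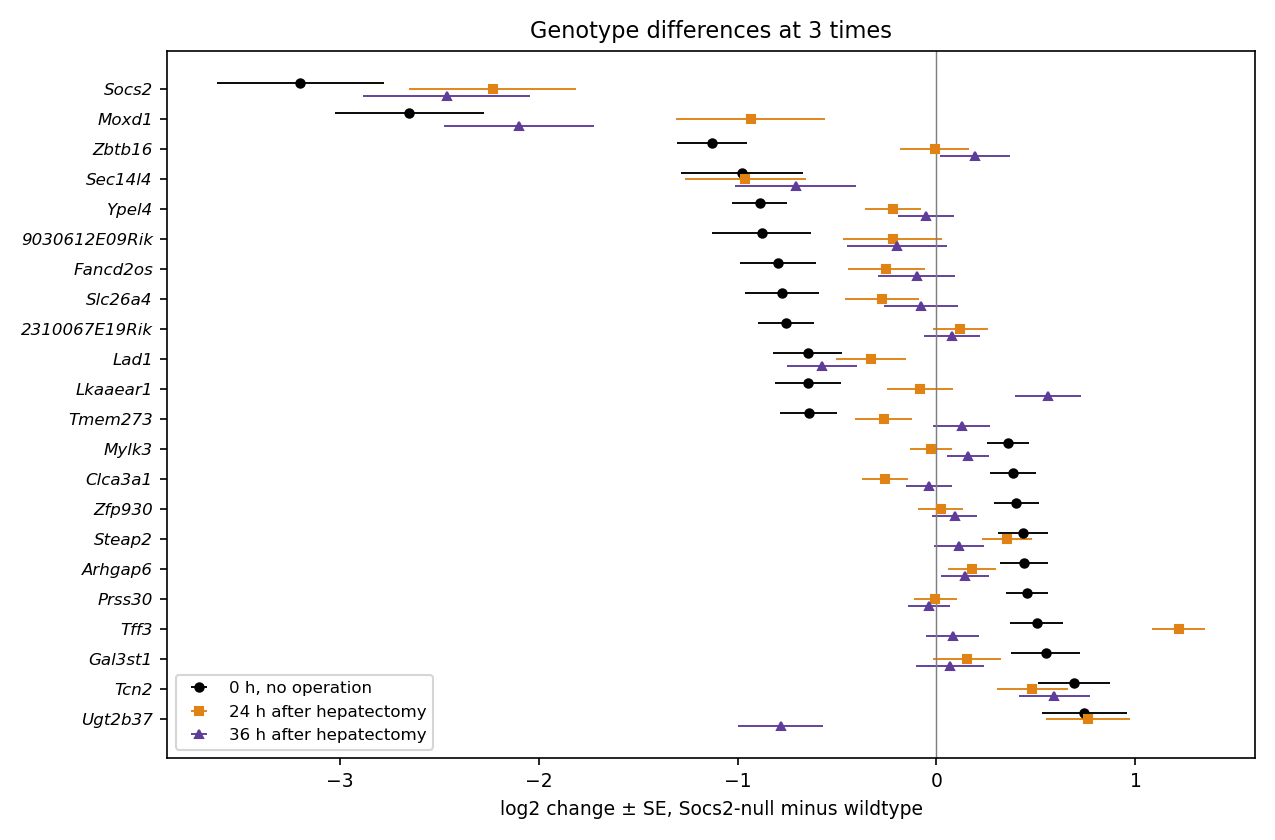
Log2 change ± standard error, Socs2-null minus wildtype, of the same 22 genes at 0 h (black circles), 24 h (orange squares) and 36 h (purple triangles), from 2 pools a group. Of the 11 lower genes other than Socs2, 7 lie left of 0 at all 3 times, as Socs2 does, and 6 of the 10 higher genes lie right of 0 at all 3, while Zbtb16 lies near 0 at 24 h and 36 h.

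The arrays at 24 h and 36 h share no sample with those at 0 h, so they read the same genes in other pools. Of the 11 lower genes other than Socs2, 10 were lower in Socs2-null liver at 24 h as well (90.9%) and 7 at 36 h (63.6%). Over all genes lower at 0 h these shares were 59.0% and 55.4%. Among the 127 lower genes that met the same conditions they were 82.7% and 73.2%. Of the 10 higher genes 7 were higher at 24 h and 7 at 36 h, against 54.0% and 52.7% of all genes higher at 0 h. Moxd1 read 86.5 and 55.5 in Socs2-null liver against 144 and 151 in wildtype liver at 24 h, and 23.6 and 23.1 against 222 and 104 at 36 h. Tcn2 read 942 and 1049.8 in Socs2-null liver against 734 and 681 in wildtype liver at 24 h, and 802 and 794 against 619.9 and 442 at 36 h. For Socs2, Moxd1, Sec14l4, Lad1, Tcn2 and Steap2 both Socs2-null pools lay on the same side of both wildtype pools at 24 h and 36 h as at 0 h. At 0 h that was a condition of their choice, so only the later times add to it. Over all genes, arrays did not overlap for 19% in the lower direction and 15% in the higher at 24 h. At 36 h these shares were 18% and 15%. Tff3 passed the adjusted threshold at 24 h, as 1 of 2 genes (0.0117%), with 349 and 310.1 in Socs2-null liver against 137 and 128 in wildtype liver (1.22 ± 0.13, limma adjusted p = 0.0133). Ugt2b37 changed sides, with 0.76 at 24 h and -0.78 at 36 h.

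In the fit over the mean of 24 h and 36 h, 1 gene passed the adjusted threshold (0.00585%), Nudt7, a peroxisomal coenzyme A hydrolase gene. It stood at -0.01 ± 0.10 at 0 h, with 7438 and 8316 in Socs2-null liver against 7859 and 7959 in wildtype liver. No gene passed when the difference at 0 h was tested against that mean (0.0%), with 583 at an unadjusted p under 0.05 (3.41%), and Nudt7 had the smallest adjusted p in limma, 0.0957. Zbtb16 had a difference of -1.22 ± 0.21 between these effects. It and the other genes of the plot were chosen at 0 h, which favours a larger difference there.

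The unadjusted p-values at 0 h leaned to one side, and the lean followed the level of the genes. Below an unadjusted p of 0.05 lay 847 genes (4.95%), 780 lower in Socs2-null liver (4.56%) and 67 higher (0.392%). With quantile normalization the split was 429 lower and 228 higher, and with arrays centred on their medians 359 lower and 263 higher. The median change over all genes was -0.04 as deposited, 0.002 with quantile normalization and 0.04 with centring. Of the 780 lower genes 620 were in the dimmer 50% of genes, where the median was -0.07, and 160 in the brighter 50%, where it was -0.01. With genes cut into 10 equal bins by level, the median in bin 3 was -0.04 for Socs2-null pool 1 and -0.11 for pool 2, and in the brightest bin it was 0.009 and -0.004. Without pool 2 the counts were 412 lower and 86 higher. A small negative difference of a dim gene thus sat within a shift of the median of dim genes.

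**Figure D3:**
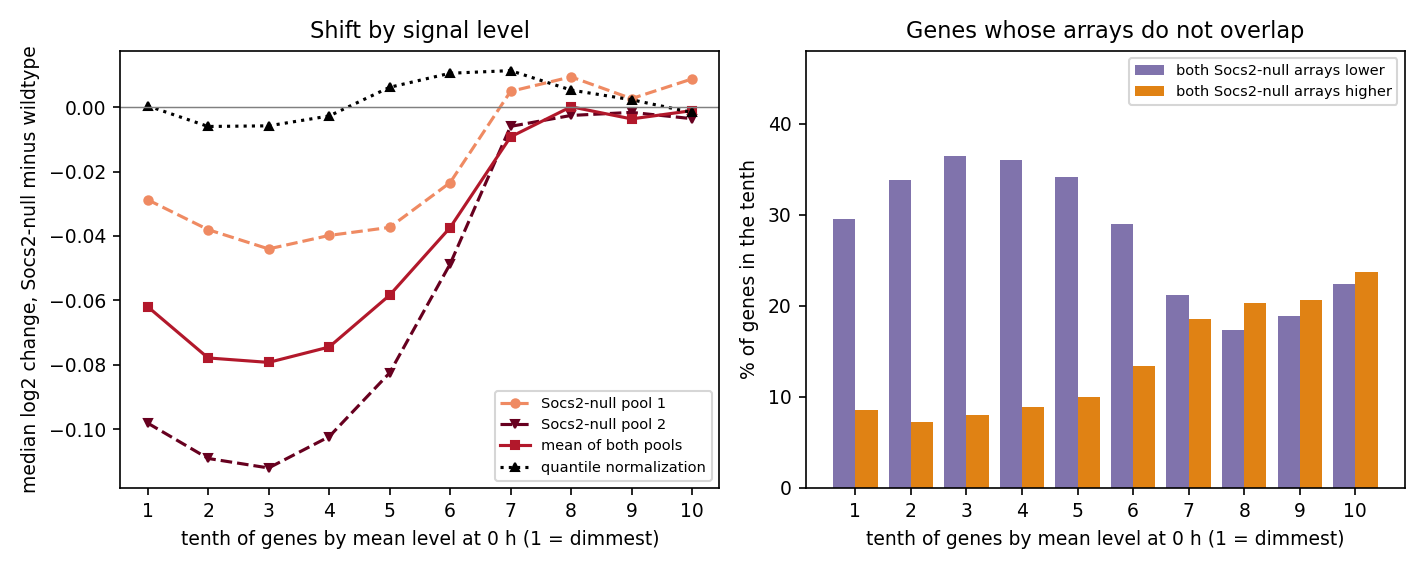
Left, the median log2 change at 0 h (Socs2-null minus the wildtype mean) in 10 equal bins of genes by mean level, for each Socs2-null pool, for both and after quantile normalization. Right, the percent of genes in each bin whose 2 Socs2-null arrays both lie below (purple) or both above (orange) the wildtype arrays. The dimmer bins lie below 0 for both pools, most for pool 2, and the brightest lie near 0.

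The next results follow the signal that Socs2 restrains, from receptor to targets. Of 19 measured genes of the growth hormone receptor, JAK kinases, STAT factors and their regulators, 12 were lower and 7 higher by their means, none passed the test, and the median of -0.02 turned positive with quantile normalization, with centring and without wildtype pool 1. The receptor gene Ghr read 4396 and 4493 in Socs2-null liver against 4366 and 4427 in wildtype liver (0.02 ± 0.18). Stat3, the factor activated by interleukin 6 signalling, read 679.5 and 573 against 519 and 547 (0.22 ± 0.18). Sh2b2, an adaptor that binds JAK2, read 67.0 and 59.0 against 86.1 and 71.2 (-0.26 ± 0.16). The arrays of Stat3 and Sh2b2 did not overlap, and those of Ghr did.

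Of the 8 SOCS family genes 4 were higher and 4 lower by their means, and Socs3 was the only one besides Socs2 to be lower without overlap. Socs3, the feedback inhibitor of interleukin 6 signalling, read 553 and 388 in Socs2-null liver, against 579.7 and 867 in wildtype liver (-0.60 ± 0.33, or -0.35 without Socs2-null pool 2). Its groups did not overlap, and its lowest wildtype reading lay close to the higher Socs2-null one. Socs6 read 89.4 and 88.6 against 74.4 and 74.1 (0.22 ± 0.16), and Socs5 and Socs7 also read higher without overlap, by 0.08 and 0.09. Socs1 and Socs4 overlapped. Without overlap 25% of the family were lower and 37.5% higher, against 27.9% and 13.9% of all genes. Cish read 403 and 91.2 in Socs2-null liver, against 416 and 217 in wildtype liver (-0.58 ± 0.68). The groups overlapped, and without Socs2-null pool 2 the change was 0.40.

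Of the 11 measured growth hormone and STAT5 targets, Socs2, Socs3 and Cish included, 10 were lower and 1 was higher, with a median of -0.12 that stayed below 0 in all settings tried (-0.24 to -0.05). By means 9.09% of these targets were higher, against 37.9% of all genes. Only Socs2, the deleted gene, Socs3 and Igf1 had arrays that did not overlap. All 3 were lower, a share of 27.3% against 27.9% of all genes. None passed the adjusted threshold. Igf1 itself was nearly level, at 6603 and 6668 in Socs2-null liver against 6955 and 6995 in wildtype liver (-0.07 ± 0.08). Igfals, which encodes the subunit that holds IGF1 in its circulating complex, stood at -0.11 ± 0.20. The hepatocyte factor gene Onecut1 read 929.8 and 423 in Socs2-null liver against 1184 and 906 in wildtype liver (-0.71 ± 0.39, or -0.15 without Socs2-null pool 2), and Bcl6, a repressor of STAT5 target genes, read 394 and 1023 against 776 and 575 (-0.07 ± 0.73, or -0.74 without that pool). In both genes the Socs2-null pools lay farther apart than the wildtype pools. Cux2, Fos and Pparg had changes from -0.19 to -0.06 and Cd36 had 0.04. Without Socs2-null pool 2 the changes were -0.23 for Cux2, -0.66 for Fos, 0.34 for Pparg and 0.18 for Cd36.

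**Figure D4:**
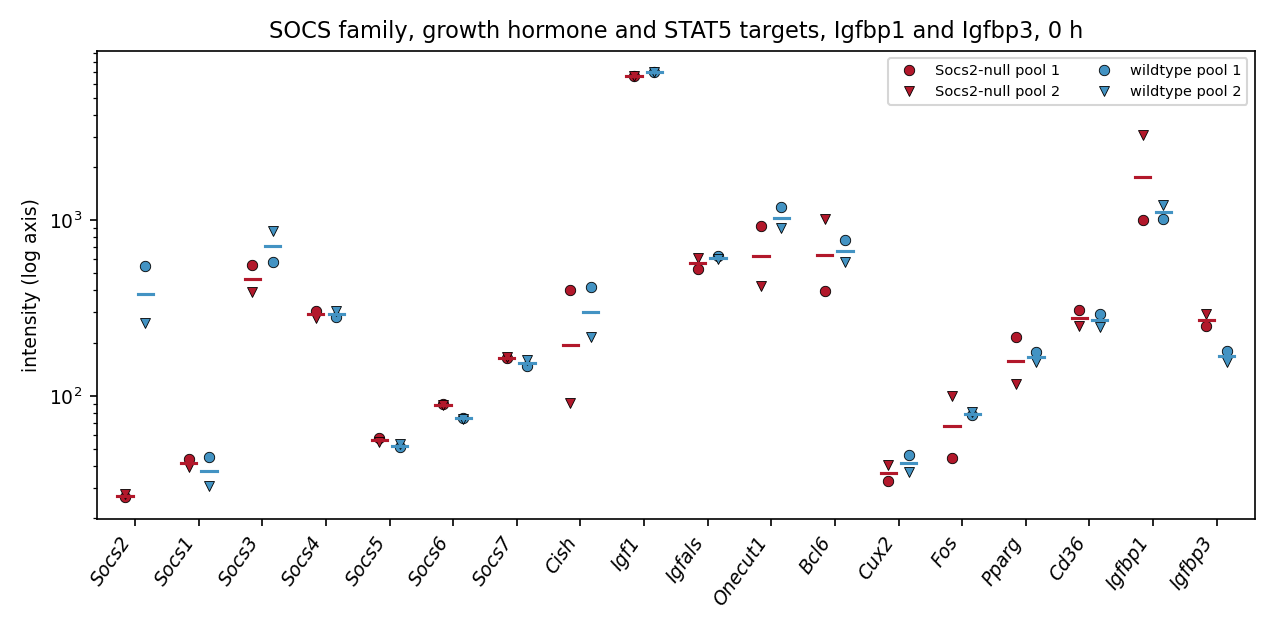
Intensity on a log axis at 0 h of the SOCS family, the other growth hormone and STAT5 targets, Igfbp1 and Igfbp3, drawn as in the plot of the largest differences (Socs2-null red and left, wildtype blue and right). Socs2 alone parts widely, Socs3 and Igfbp3 part by little, and Cish, Onecut1, Bcl6 and Igfbp1 have 1 Socs2-null pool far from the other.

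Of 15 genes of the IGF axis 8 were higher and 7 lower, with a median of 0.006 that changed sign with single arrays left out and with the mean of all probe sets. Igfbp3, for the main carrier of IGF1 in blood, read 251 and 294 in Socs2-null liver against 180.2 and 156 in wildtype liver (0.65 ± 0.42). It was higher at 24 h (0.71) and at 36 h (1.02) too. Igfbp1, for an IGF carrier that fasting is known to raise, read 1009 and 3081 in Socs2-null liver against 1024 and 1224 in wildtype liver (0.65 ± 0.41). Pool 2 alone set that difference, since pool 1 lay below both wildtype pools, and without pool 2 the change was -0.15.

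Genes that growth hormone rhythm sets by sex were read because Moxd1 is one of them. Of 19 measured male-biased genes 15 were lower and 4 higher, 7 (36.8%) and 3 (15.8%) without overlap against 27.9% and 13.9% of all genes, with a median of -0.05 that became 0.02 with centring. Apart from Moxd1 the changes were small, and the smallest p-values belonged to Cspg5 (-0.21 ± 0.10), to Gstp1 (-0.09 ± 0.07) and, on the higher side, to the complement gene C8b (0.14 ± 0.16). Cspg5 read 39.0 and 34.8 in Socs2-null liver, both under background, against 43.9 and 46.5 in wildtype liver, close to it. Of 20 female-biased genes 11 were higher and 9 lower (median 0.009, below 0 without either Socs2-null array), and Hao2, an oxidase gene of peroxisomes, read 55.3 and 53.8 in Socs2-null liver against 71.9 and 84.7 in wildtype liver (-0.42 ± 0.13). The Y-linked genes Eif2s3y, Kdm5d and Uty read 528 and 540.5, 116 and 115, and 127 and 103 in Socs2-null liver. In wildtype liver they read 586 and 529, 135 and 132, and 119.9 and 119.9. Xist, expressed from the inactive X chromosome, read 37.7 and 40.0 against 45.8 and 56.3. All 4 arrays thus showed Y-linked transcripts above background and Xist close to background, in both genotypes.

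Acute-phase genes, which encode plasma proteins the liver makes in inflammation, were mostly higher in Socs2-null liver. Of 23 measured, 18 were higher and 5 lower, 12 (52.2%) and 1 (4.35%) without overlap, against 13.9% and 27.9% of all genes. The median was 0.14 (0.10 to 0.21 over the settings tried) against -0.04 over all genes. Many of these genes are bright. In the brightest of the 10 bins by level the shares were 23.7% and 22.4%, with a median of -0.001. No acute-phase gene passed the adjusted threshold. Fgl1, a hepatokine gene, read 3804 and 3017 in Socs2-null liver against 2666 and 2437 in wildtype liver (0.41 ± 0.14), and Steap4, a metalloreductase gene, read 1568 and 1262 against 1067 and 845 (0.56 ± 0.21). For these 2 genes both Socs2-null pools were the higher ones. The serum amyloid gene Saa2 read 4082 and 2352 against 2917 and 1396 (0.61 ± 0.32), and the iron-binding lipocalin gene Lcn2 followed the same order with 0.47 ± 0.26. In Saa2 and Lcn2 pool 1 of each genotype was well above pool 2, the groups overlapped, and the changes without Socs2-null pool 2 were 1.01 and 0.94. The same held for the metallothionein gene Mt1 with 4825 and 2265 against 2727 and 1448 (0.73 ± 0.36, or 1.27 without that pool).

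**Figure D5:**
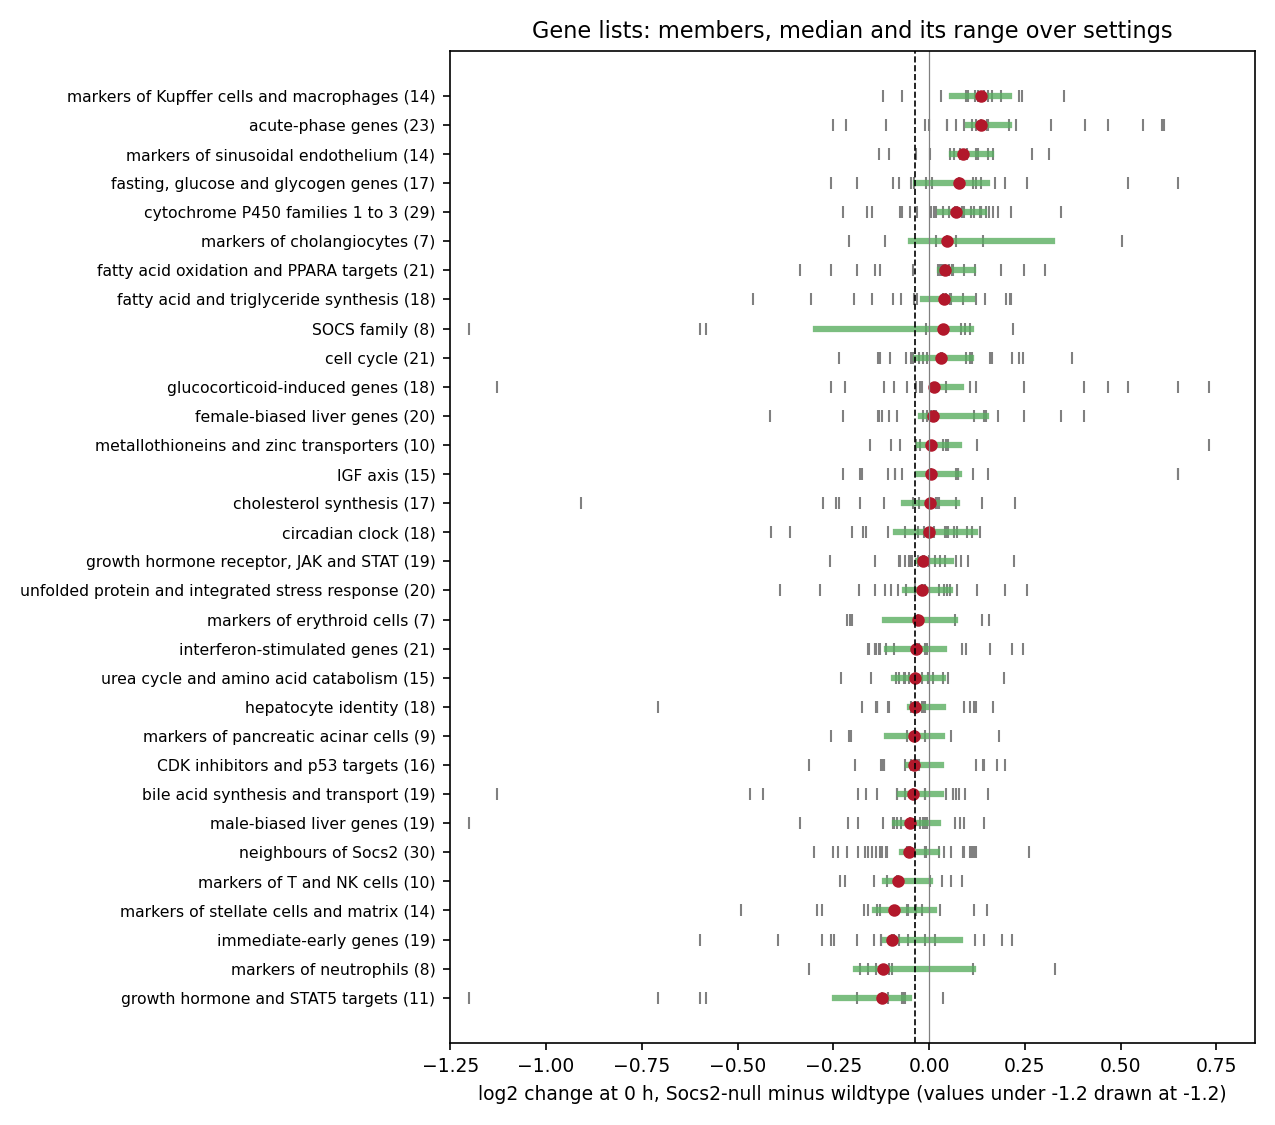
Log2 changes at 0 h, Socs2-null minus wildtype, of the members (grey ticks) of gene lists with 7 or more measured genes, their median (red) and its range over all settings tried (green). The dashed line is the median over all 17097 genes. Macrophage markers, acute-phase genes, sinusoidal endothelial markers, P450 genes, fatty acid oxidation genes and glucocorticoid-induced genes lie right of 0 over their whole range, and growth hormone and STAT5 targets lie left of it.

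Markers of cells other than hepatocytes were read beside these lists, and none passed the adjusted threshold. Of 14 Kupffer cell and macrophage markers 12 were higher and 2 lower, with a median of 0.14 (0.06 to 0.21). Without overlap 10 (71.4%) were higher and 1 (7.14%) lower, against 13.9% and 27.9% of all genes. In bin 9 of the 10 by level, where the markers' median level lay, these shares were 20.6% and 18.9%. The summed intensity of the markers was 9183 and 8865 in Socs2-null liver, against 8466 and 7758 in wildtype liver, and none was under background. Mpeg1, which encodes a pore-forming protein of macrophages, read 798 and 790.4 against 684 and 559 (0.35 ± 0.16), the complement gene C1qb stood at 0.23 ± 0.13, and the receptor gene Csf1r ran the other way at -0.12 ± 0.11. In bulk RNA, more cells of a type and more RNA per cell cannot be told apart. Of 14 sinusoidal endothelial markers 11 were higher, with a median of 0.09 and summed intensities of 5585 and 5872 in Socs2-null liver against 5431 and 5301 in wildtype liver. Their part in the acute-phase result was not tested.

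The remaining marker lists had medians that changed sign between settings. Of 14 stellate cell and matrix markers 11 were lower, with a median of -0.09 that turned positive without Socs2-null pool 1. The intermediate filament gene Des read 92.8 and 54.2 in Socs2-null liver against 107 and 106 in wildtype liver (-0.49 ± 0.18, or -0.18 without Socs2-null pool 2), and the smooth muscle actin gene Acta2 stood at -0.29 ± 0.14. Of 8 neutrophil markers 6 were lower, with summed intensities of 464 and 432 in Socs2-null liver against 519.9 and 455 in wildtype liver and a median of -0.12 that became 0.12 without the dimmest 50% of genes. The calprotectin gene S100a8 ran the other way, with 38.8 and 39.3 in Socs2-null liver against 33.2 and 23.0 in wildtype liver. All of these readings but that of Socs2-null pool 2 were under background. Markers of T and NK cells, B and plasma cells, erythroid cells, pancreatic acinar cells and adipocytes had medians from -0.08 to 0.02. Of 7 cholangiocyte markers, Tff3 among them, 5 were higher and 2 lower, with a median of 0.05 (-0.05 to 0.32).

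Of 29 cytochrome P450 genes of families 1 to 3, which oxidize drugs and steroids, 21 were higher and 8 lower. Their median was 0.07 (0.03 to 0.14). Without overlap 12 (41.4%) were higher and 3 (10.3%) lower, against 13.9% and 27.9% of all genes. In the brightest of the 10 bins by level these shares were 23.7% and 22.4%. Examples of higher P450 genes were Cyp2c50 with 8721 and 8642 in Socs2-null liver against 7825 and 7765 in wildtype liver (0.16 ± 0.12), Cyp2c29 (0.18 ± 0.14) and Cyp2c70 (0.21 ± 0.16). Probe sets of such close relatives may read each other's transcripts. The median of these genes was -0.07 both at 24 h and at 36 h. Of 21 fatty acid oxidation genes and PPARA targets 15 were higher, with a median of 0.04 (0.03 to 0.11). Plin2, for a lipid droplet coat protein, read 4657 and 4601 against 3979.7 and 3539 (0.30 ± 0.20), and Acot2, for a mitochondrial acyl-CoA thioesterase, ran the other way (-0.34 ± 0.37). Of 17 fasting, glucose and glycogen genes 10 were higher, with a median of 0.08 that turned negative without wildtype pool 1. Angptl4, a lipase inhibitor gene of that list, read 1037 and 1039.8 in Socs2-null liver against 754 and 686 in wildtype liver (0.52 ± 0.27).

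Genes of bile acid synthesis and transport stood near all genes as a list. Of 19, 12 were lower and 7 higher, 6 (31.6%) and 2 (10.5%) without overlap against 27.9% and 13.9% of all genes, with a median of -0.04 that turned positive with centring and without Socs2-null pool 1. Cyp7a1, the rate-limiting enzyme of bile acid synthesis, read 1076 and 505 in Socs2-null liver against 1738 and 1531 in wildtype liver. Both Socs2-null pools were low, and the fitted change of -1.13 carried a standard error of 0.83 over the 12 arrays. It was -0.59 without Socs2-null pool 2, which is under 2-fold, and -1.66 without pool 1. Cyp8b1, which makes the 12-hydroxylated bile acids, read 2627 and 2513 against 3445 and 3681 (-0.47 ± 0.86). The bile acid and anion carrier gene Slco1a4 read 464 and 492 against 640.1 and 661 (-0.43 ± 0.32), and its change was negative at 24 h (-1.06) and 36 h (-1.44) too.

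Cholesterol synthesis genes split evenly, 9 higher and 8 lower, around a median of 0.001. Hmgcs1, for the enzyme before the rate-limiting step, read 27.6 and 32.5 in Socs2-null liver, under background, against 98.8 and 48.9 in wildtype liver (-0.91 ± 0.45, at least 1.75-fold). Of 18 fatty acid and triglyceride synthesis genes 10 were higher, and Me1, for the malic enzyme that supplies NADPH, read 1439.8 and 1242 against 1684 and 2024 (-0.46 ± 0.22). Of 15 urea cycle and amino acid genes 11 were lower (median -0.04) and of 21 interferon-stimulated genes 16 (median -0.03), medians close to that of all genes that both turned positive with centring. Of 18 clock genes 9 were lower. Nfil3, a repressor of clock output genes, read 139 and 139 in Socs2-null liver against 206 and 162 in wildtype liver (-0.36 ± 0.23), and the core activator Arntl read 28.7 and 35.5 against 56.3 and 40.5 (-0.41 ± 0.27), close to background.

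Several signal-responsive genes differed most between the 2 Socs2-null pools. Of 19 immediate-early genes 14 were lower in Socs2-null liver, with a median of -0.10 that turned to 0.08 without Socs2-null pool 1. The growth factor response gene Egr1 read 95.8 and 803 in Socs2-null liver, against 549 and 264 in wildtype liver (-0.40 ± 0.81). Between the Socs2-null pools 50 genes differed over 2-fold on log2(intensity + 16), against 11 between the wildtype pools. On pool 2 alone, 8 genes read over 4 times the highest of the other 3 arrays, among them Ccdc116 with 219 and Gjb5 with 270.0, where the other arrays read at most 25.8 and 38.8. No gene did so on Socs2-null pool 1 or wildtype pool 1, and 1 did on wildtype pool 2.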

How the data were processed

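Members, lists and tests were chosen with earlier results of these data known. Liver RNA (10 micrograms of total RNA pooled from 3 animals) was used for the biotinylated target of every array, per the labels' protocols. The deposited intensities are the authors' processed values on a linear scale (1 to 24717). How they were summarized and normalized is not stated in the labels, and no further scaling was applied.

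Of 45141 probe sets, 28898 have 1 gene in the platform annotation, 551 several and 15588 none, and 104 are controls. For each gene the probe set of highest average signal was kept, leaving 17097 genes, 7180 of them with several probe sets. Group means of log2(intensity + 16) were fitted over all 12 arrays (6 groups, 6 residual degrees of freedom) in R 4.3.3 with limma 3.58.1, using a trended, robust eBayes (statmod 1.5.0). Tests were two-sided, and p-values were adjusted over all genes by Benjamini and Hochberg's method. Pools are the replicates, and the labels call them biological replicates. The number of arrays limits precision. At least N-fold bounds set the bright group's mean against the brightest tag control, or the dim reading where higher. The test was checked on simulated data.

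Genes named were Socs2, the 12 largest differences in each direction that met the conditions given (only 10 were higher), all SOCS family, growth hormone and STAT5 target and sex-linked genes, and up to 4 genes of smallest p from each other list, neighbours included. Ghr, Egr1, Cyp8b1, Cradd, Nudt7, Acot2, S100a8, Oas1f, Ccdc116, Gjb5, Pik3r3, Xlr4b, Alb and Ttr were named after their values were seen. The 36 lists hold 577 genes, 498 of them measured. Lists were described by counts and medians, with no test. Plots used matplotlib 3.10.9 under Python 3.11.15.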

Additional observations from a re-analysis of the deposited data

How the results depend on the processing

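The fit was repeated with pseudocounts of 1 and 64, quantile normalization, medians of arrays set equal (centring), without the dimmest 50% of genes, with probe sets averaged, leaving out _x_at and _s_at probe sets, plain eBayes, arrayWeights, only the arrays compared, a replicate block and leaving out each array in turn. The cause of a moved count was not tested. Genes past the adjusted threshold in limma at 0 h, 0 as reported with 847 at an unadjusted p under 0.05, ranged over 0 to 20 when single arrays were dropped, with 20 for Socs2-null 0 h replicate 1, 8 of them among the genes high on Socs2-null pool 2 alone, and Socs2 alone without wildtype 24 h replicate 1 (adjusted p = 0.0287) or 2 (0.0253). Over all settings the adjusted p of Socs2 ran from 0.0253 to 0.879 and that of Moxd1 from 0.0305 to 0.886. With the replicate block 2 genes passed, Socs2 and Moxd1. The numbers pair no samples by the labels, and the deviations of same-numbered pools correlated from -0.499 to 0.347 (-0.0189 between the groups at 0 h). The 22 genes with the largest differences kept their direction in all 493 values the settings gave for them, some settings leaving a gene out. Leaving out an array could not reverse them, since they were chosen for 0 h arrays that did not overlap. Plain eBayes, arrayWeights, the replicate block and only the arrays compared do not alter a change at 0 h. Most of these values were therefore no check of direction.

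Over the mean of 24 h and 36 h, 1 gene passed as reported, 2 with centring, 9 with a pseudocount of 1, 3 with 64, 10 without the dimmest 50%, 9 with the mean of probe sets, 4 without _x_at and _s_at probe sets, 8 with plain eBayes, 9 with the replicate block and 1 to 48 with 1 array left out (48 for Socs2-null 24 h replicate 1, 36 for replicate 2). For the difference between times, 0 passed as reported, 1 with arrayWeights and 0 to 14 with 1 array left out (14 if Socs2-null 0 h replicate 1 was dropped, 1 if Socs2-null 24 h replicate 2 was). At an unadjusted p under 0.05 at 0 h, higher and lower genes were 67 and 780 as reported, 228 and 429 with quantile normalization, 263 and 359 with centring, 29 and 115 without the dimmest 50%, 215 and 1540 with arrayWeights, 383 and 1102 with only the arrays compared, and 47 to 103 and 356 to 1163 with 1 array left out. Of 36 list medians 8 kept their sign in every setting and 28 did not. Plain eBayes, arrayWeights, the replicate block and only the arrays compared left every list median at 0 h as it was. So did leaving out an array of 24 h or 36 h, so these settings could not change a sign.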
